A study of Mus musculus with 6 samples.

Results

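The respiratory chain genes were the 111 genes, of 32285 counted, whose symbols begin with mt-, Nduf, Uqcr, Atp5, Sdh, Cox4, Cox5, Cox6, Cox7 or Cox8. They comprised 13 genes of the mitochondrial genome, 85 nuclear genes for subunits of complexes I to V and 13 nuclear genes for assembly factors. By complex, the nuclear subunits numbered 37 for complex I, 4 for complex II, 8 for complex III, 19 for complex IV and 17 for complex V, and the mt- genes numbered 7, 0, 1, 3 and 2 in the same order. UMIs (unique molecular identifiers, 1 for each captured RNA molecule) were counted by 3′ scRNA-seq in CD45+/CD11b+ cells sorted from the whole brain of 3 male C57BL/6J mice at postnatal day 89, after cold Dounce homogenization on ice. The brain of mouse 2 was processed with an inhibitor cocktail of actinomycin D, triptolide and anisomycin (DNC-INHIB), and those of mice 1 and 3 without it (DNC-NONE). The cells of every animal went through both 10X kits, V3.0 and V3.1, and the 6 resulting libraries shared a flow cell. V3.0 chips ran on an original Chromium controller and V3.1 chips on a NextGEM one, so the kit cannot be told apart from the controller. The design compares the kits within each mouse, and DNC-INHIB rests on 1 animal.

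The respiratory chain of the inner mitochondrial membrane passes electrons from NADH (complex I) and succinate (complex II) through complex III to oxygen (complex IV), and the proton gradient it builds drives ATP synthase (complex V). Complexes I, III, IV and V combine subunits encoded in the mitochondrial genome with subunits encoded in the nucleus, made in the cytosol and imported, whereas complex II is wholly nuclear-encoded. Mitochondrial genes are transcribed from both strands as long precursors, which are cut into RNAs that mostly receive a short poly(A) tail. Neutrophils are known for relying largely on glycolysis, and brain macrophages for using both glycolysis and respiration.

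3′ capture with oligo(dT) reads RNA close to its poly(A) tail. The last 60 bases of 6 mt- genes are shown as annotated, 5′ to 3′ on the coding strand, from the GENCODE vM21 transcripts (GRCm38). An annotated end need not be the end of the RNA that was captured, and where these RNAs end was not tested. The window of *mt-Atp8* lies ahead of most of *mt-Atp6*, which is carried on the same RNA and ends at base 8607. *mt-Nd3* and *mt-Co3* had the largest differences between the kits in microglia, *mt-Co1* differed most in its share between cell types, and *mt-Atp8*, *mt-Nd5* and *mt-Nd6* were the mt- genes not called between the kits in microglia. Capitals mark the stop codon, or the part of it that the gene itself encodes.
mt-Nd3, chrM:9747-9806, + strand: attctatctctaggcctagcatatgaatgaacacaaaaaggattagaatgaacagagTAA
mt-Co3, chrM:9331-9390, + strand: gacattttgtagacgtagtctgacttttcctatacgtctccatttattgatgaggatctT
mt-Co1, chrM:6813-6872, + strand: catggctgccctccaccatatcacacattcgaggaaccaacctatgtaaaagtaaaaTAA
mt-Atp8, chrM:7910-7969, + strand: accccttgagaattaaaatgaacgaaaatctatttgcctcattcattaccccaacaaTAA
mt-Nd5, chrM:13506-13565, + strand: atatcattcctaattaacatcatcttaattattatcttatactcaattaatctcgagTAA
mt-Nd6, chrM:13552-13611, − strand: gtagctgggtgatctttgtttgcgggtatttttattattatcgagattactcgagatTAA
*mt-Co3* ends in a lone T, and its stop codon is completed by the poly(A) tail. Some of these genes share bases, so a few reads cannot be told apart. *mt-Atp8* shares its last 43 bases, 21.1% of its length, with *mt-Atp6* on the same strand, *mt-Nd4l* shares 7 bases with *mt-Nd4*, and *mt-Atp6* shares 1 base with *mt-Co3*. *mt-Nd5* and *mt-Nd6* share 14 bases on opposite strands, and the strand setting of the counting was not given in the sources used here. Nuclear copies of mitochondrial sequence and processed pseudogenes of several small nuclear subunits could also have taken or given reads, which was not tested.

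Of 29412 barcodes, 19725 were kept, and they included 18971 microglia, 294 neutrophils and 151 border macrophages, named by marker genes after clustering in which no respiratory chain gene was used. The summed UMIs per library ranged from 3232890 to 16551849 in microglia, from 115102 to 377149 in neutrophils and from 24700 to 283214 in border macrophages. Levels are given as CPM, the UMIs on a gene per 1000000 UMIs of the same library and cell type. The microglial marker list summed to between 63590 and 69440 CPM in microglia, between 24700 and 39820 in border macrophages and between 1660 and 4061 in neutrophils. Of the border macrophages, 127 were led by the major histocompatibility genes *H2-Eb1* and *H2-Aa* and 24 by *Cd163*, *Pf4* and *Mrc1*. Any 2 libraries shared between 1 and 14 barcodes. In the V3.0 library of mouse 3 only 21.5% of barcodes were kept, against 70.0% to 76.8% in the others, and it held 908 microglia and 5 border macrophages, so results that turn on it are given without it as well.

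Between the kits, microglial RNA of the mitochondrial genome and of the nuclear subunits moved in opposite directions. The 13 mt- genes took 1.89%, 2.18% and 1.71% of microglial UMIs in the V3.0 libraries of mice 1, 2 and 3, and 0.836%, 0.937% and 1.16% in the V3.1 libraries of the same mice. The mt- share was lower with V3.1 in 3 of 3 mice and the kits did not overlap, with the fold smaller in mouse 3 (1.48) than in mice 1 and 2 (2.26 and 2.33). The nuclear subunits took 1.05%, 1.00% and 1.01% with V3.0 and 1.20%, 1.15% and 1.09% with V3.1, higher in 3 of 3 mice, again without overlap. The V3.0 libraries held 1.94 ± 0.27 mt- UMIs for each nuclear-subunit UMI (SD, n = 3 libraries), and the V3.1 libraries 0.881 ± 0.193 (SD, n = 3).

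**Figure D1:**
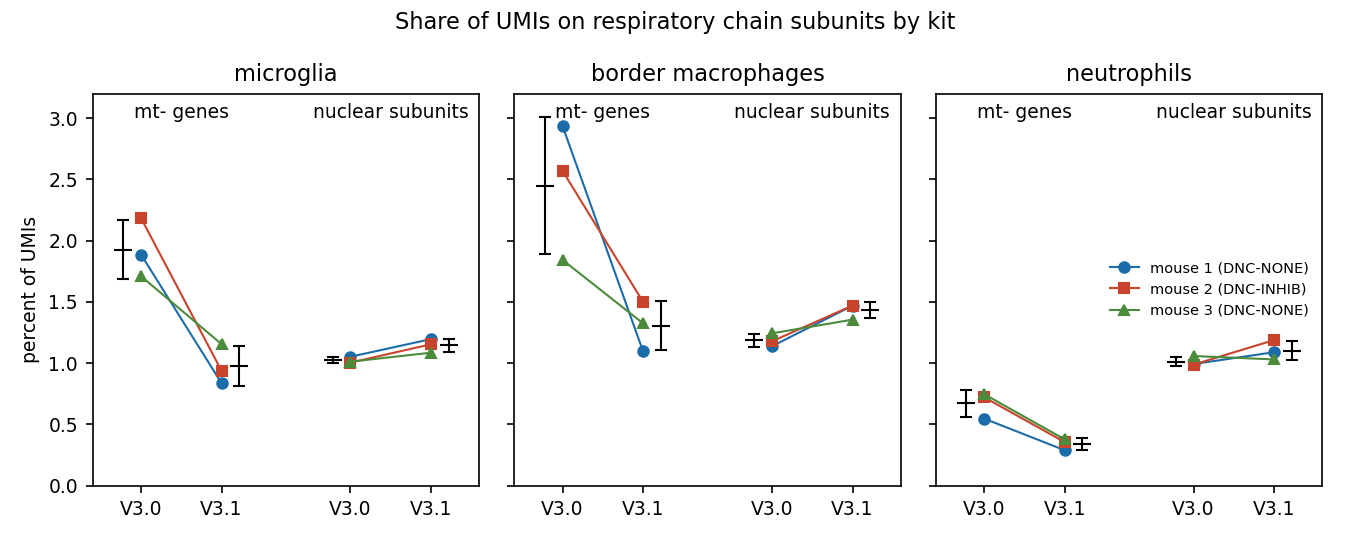
Percent of UMIs (vertical axis) on the mt- genes and on the nuclear subunits in each library, by kit, for microglia, border macrophages and neutrophils. Lines join the libraries of a mouse and black bars give mean ± SD over 3 libraries; every line for the mt- genes falls from V3.0 to V3.1, from 1.93% to 0.976% on average in microglia, while the lines for the nuclear subunits move less.

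Of the 13 mt- genes, 10 were called lower with V3.1 in microglia and none higher, where a call needs a Benjamini-Hochberg adjusted p under 0.05 from edgeR's quasi-likelihood test and, on the log2 scale, a fold change larger than 0.58 in size. Of the 12025 genes tested, 1.51% were called lower and 1.56% higher. The median log2 fold change was −0.79 over the mt- genes, 0.17 over the 92 of 98 nuclear members that passed the filter on low counts and 0.00075 over all genes. The count was 10 without the V3.0 library of mouse 3.

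In complex I, the NADH dehydrogenase, 5 of 7 mt- genes fell. *mt-Nd3*, a subunit of its membrane arm, had 449, 483 and 354 CPM in the V3.0 libraries of mice 1, 2 and 3 and 164, 153 and 170.4 in the V3.1 libraries. Its V3.1 libraries lay close together and all below its V3.0 libraries. The log2 fold change was −1.39 (SE 0.10, adjusted p = 6.7e-06). *mt-Nd2* fell by 1.20 (SE 0.13, adjusted p = 0.00018), *mt-Nd4* by 0.99, *mt-Nd4l* by 0.79 and *mt-Nd1* by 0.71 on the log2 scale, and none of these 4 overlapped between the kits. *mt-Nd5*, like *mt-Nd2* and *mt-Nd4* a proton-pumping subunit, was not called: it had 299, 284 and 259 CPM with V3.0 and 267, 230 and 227 in the V3.1 libraries, a log2 fold change of −0.21 (SE 0.08, adjusted p = 0.091). *mt-Nd6*, the only protein gene on the other strand of the mitochondrial genome, had 27.1, 32.7 and 17.6 CPM with V3.0 and 50.1, 36.3 and 29.1 with V3.1. Each mouse had the higher value with V3.1, but the kits overlapped and its log2 fold change of 0.48 (SE 0.19) missed the call, with an adjusted p of 0.11.

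*mt-Cytb*, the cytochrome b of complex III, fell by 0.74 (SE 0.13, adjusted p = 0.0040). The 3 catalytic-core subunits of complex IV, cytochrome c oxidase, all fell. *mt-Co3* went from 3534, 4227 and 3317 CPM to 1090, 1334 and 1932 (log2 fold change −1.33, SE 0.16, adjusted p = 0.00048), *mt-Co2* by 1.08 (SE 0.13) and *mt-Co1* by 0.70 (SE 0.09) on the log2 scale. The 95% intervals of the log2 fold change were −0.87 to −0.53 for *mt-Co1*, −1.34 to −0.83 for *mt-Co2* and −1.65 to −1.01 for *mt-Co3*, so that those of *mt-Co1* and *mt-Co3* did not overlap. In ATP synthase, *mt-Atp6*, the subunit that forms the proton path, fell by 1.16 (SE 0.13, adjusted p = 0.00032), whereas *mt-Atp8*, which is carried on the same RNA, was at 32.1, 23.0 and 19.8 CPM with V3.0 and 35.9, 24.3 and 19.2 with V3.1 (log2 fold change 0.01, SE 0.20). The 3 mt- genes that were not called (*mt-Nd5*, *mt-Nd6* and *mt-Atp8*) were the 3 whose kits overlapped. Call and overlap come from the same libraries, so the one is no separate support for the other. The share of all genes without overlap is not given here.

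**Figure D2:**
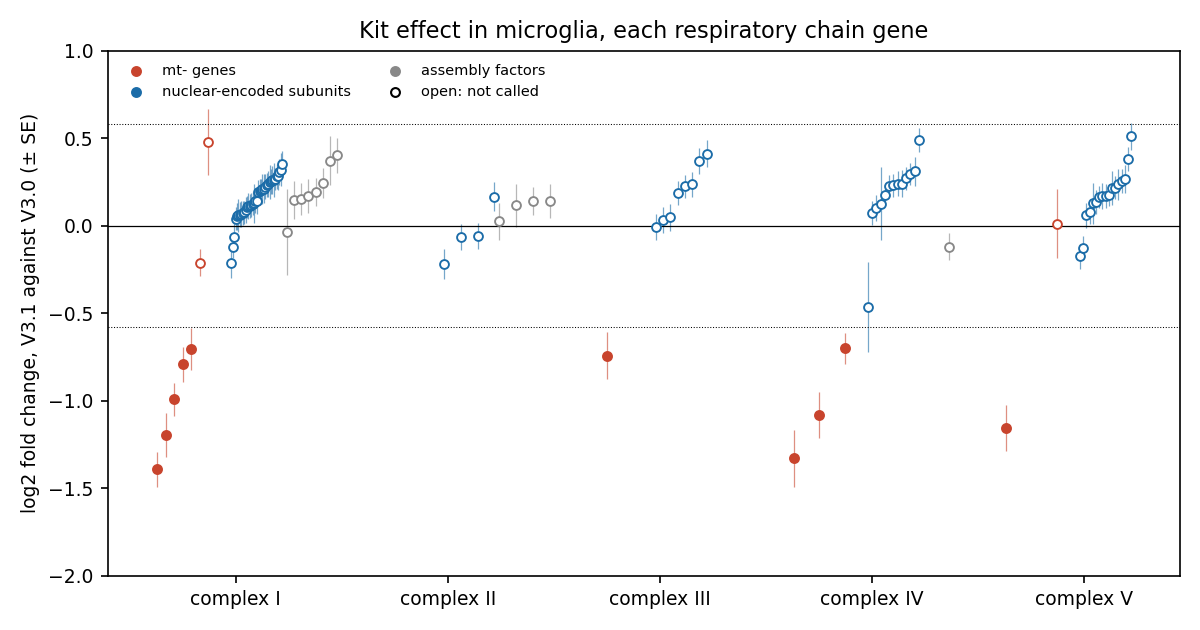
Log2 fold change of V3.1 against V3.0 in microglia (vertical axis, ± SE) for every member tested, by complex, with dotted lines at 0.58 either way. The mt- genes reach −1.39 and 10 are filled (called), while every nuclear-encoded member is open and lies between −0.46 and 0.51.

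Of the 92 nuclear members tested, 0 were called by edgeR and 0 by DESeq2, and none moved past 0.58. Their smaller rises were nonetheless frequent: 80 of 92 had a log2 fold change above 0. At an unadjusted p below 0.05, 47 were higher and 3 lower, against 1705 and 1835 of all 12025 genes tested. With the adjusted p alone 26 were higher and 0 lower, against 6.32% higher and 7.38% lower among all genes tested. The medians by complex were 0.14 for the 37 nuclear subunits of complex I, −0.06 for the 4 of complex II, 0.21 for the 8 of complex III, 0.23 for the 13 tested of complex IV and 0.17 for the 17 of complex V, 0.18 and 0.13 for the assembly factors of complexes I and II, and −0.12 for *Cox7a2l*, the assembly factor of complex IV.

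Among the nuclear subunits with the most microglial UMIs in each complex, *Ndufc2* and *Cox4i1*, accessory subunits of complexes I and IV, illustrate the rise. *Cox4i1* had 379, 344 and 373 CPM with V3.0 and 461, 436 and 432 with V3.1, with no overlap and a log2 fold change of 0.30 (SE 0.07, adjusted p = 0.011). *Ndufc2* had a log2 fold change of 0.28 (SE 0.07, adjusted p = 0.020), *Uqcrb* and *Uqcrh* of complex III 0.24 and 0.22 (adjusted p = 0.047 and 0.035) and *Cox7c* 0.24 (adjusted p = 0.041). *Ndufa13*, *Ndufa2*, *Uqcr11*, *Cox8a*, *Atp5e*, *Atp5g2* and *Atp5l* ranged from 0.03 to 0.20 and missed an adjusted p of 0.05. The 3 nuclear members with the largest positive values, picked after their values were seen, were *Atp5g3* (0.51, SE 0.08, adjusted p = 0.0014), which encodes the c subunit of the ATP synthase ring, *Cox7b* (0.49) of complex IV and *Uqcrc2* (0.41), a core protein of complex III. None of the 4 subunits of complex II, succinate dehydrogenase, had an adjusted p below 0.05: *Sdha*, the flavoprotein, was at −0.07, the iron-sulfur *Sdhb* at 0.17, and the membrane anchors *Sdhc* and *Sdhd* at −0.22 and −0.06.

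The ratio of mt- to nuclear-subunit UMIs was lower with V3.1 in every complex that has both. In microglia, V3.0 averaged 1.51 ± 0.19 and V3.1 0.724 ± 0.12 (SD, n = 3 libraries each) for complex I, 2.52 ± 0.37 and 1.32 ± 0.34 for complex III, 3.81 ± 0.54 and 1.59 ± 0.39 for complex IV, and 0.803 ± 0.128 and 0.329 ± 0.076 for complex V. The kits did not overlap in any of the 4. The make-up of the mt- UMIs also differed between the kits: *mt-Co3* held 19.2% ± 0.37 of them in the V3.0 libraries and 14.7% ± 1.9 in the V3.1 libraries (SD, n = 3 each), and *mt-Co1* 14.9% ± 0.55 and 17.9% ± 1.3. Per microglial cell, the median number of mt- UMIs lay between 53 and 68 in the V3.0 libraries and between 26 and 37 in the V3.1 libraries, and that of nuclear-subunit UMIs between 33 and 38 and between 37 and 40. Within a library, the 2 shares were only weakly related over cells (Spearman's rho 0.077 to 0.175, over 908 to 4580 cells that share the library and its depth).

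Markers of other cells were compared between the kits as well. The 12 neuronal markers summed to between 12.7 and 14.6 CPM in V3.0 microglia and between 12.7 and 15.3 with V3.1, the neutrophil markers to between 843 and 1276 and between 749 and 1514, while the 8 astrocyte markers were at 237 to 239 and 205 to 217, with no overlap. The 14 border macrophage markers, of which 13 were detected and *Clec4n* was at 0, summed to between 336 and 344 CPM in V3.0 microglia and between 214 and 268 with V3.1, also without overlap, and 5 of the 14 were lower. The 21 microglial markers summed to between 63590 and 67110 CPM with V3.0 and between 67920 and 69440 with V3.1, again apart, with 10 of the 21 lower. The part of these lists in the mt- result was not tested. Among nuclear genes for mitochondrial DNA and RNA maintenance, 3 of 20 tested were called higher with V3.1 (*Slirp* at 0.71, which binds mitochondrial mRNA, *Ssbp1* at 0.65, which coats single-stranded mitochondrial DNA, and *Fastkd2* at 0.59) and 1 lower (*Polg* at −0.59, the catalytic subunit of the mitochondrial DNA polymerase). No gene was called for the mitochondrial ribosome (0 of 78, median 0.16), the tricarboxylic acid cycle (0 of 16, median 0.07), glycolysis (0 of 17, median 0.01), complex IV assembly and cytochrome c (0 of 20, median 0.14), regulators of biogenesis (0 of 8, median −0.15), or the outer membrane and import (0 of 15, median 0.09).

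The same contrast held for fewer mt- genes at the lower depth of the rarer cells. In neutrophils the mt- share was 0.547%, 0.722% and 0.747% with V3.0 and 0.289%, 0.355% and 0.378% with V3.1, lower in 3 of 3 mice with no overlap. The mean difference of −0.331 percentage points became −0.634 when cells of at least 500 genes were taken in place of 1000. The 21 microglial markers moved the same way in neutrophils, from between 3323 and 4061 CPM with V3.0 to between 1660 and 2531 with V3.1, with 20 of 21 lower and no overlap; their part in the mt- result was not tested. Of 10 mt- genes tested there 7 were called lower and 0 higher, and 0 of 67 nuclear members were called in either direction. Of the 2910 genes tested, 0.55% were called lower and 0.137% higher. At an unadjusted p below 0.05, 3 nuclear members were higher and 1 lower, against 108 and 151 of all genes tested. *mt-Nd2* fell by 1.74 (SE 0.29, adjusted p = 0.0019), *mt-Nd3* by 1.63 (SE 0.34), *mt-Co3* by 1.22 (SE 0.14) and *mt-Co1* by 0.79 (SE 0.14) on the log2 scale. The count fell to 4 without the V3.0 library of mouse 3, to 3 without mouse 3 and to 1 without mouse 2.

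In border macrophages the mt- share was 2.94%, 2.57% and 1.84% with V3.0 and 1.10%, 1.50% and 1.32% with V3.1, again lower in 3 of 3 mice with no overlap. The 6 mt- genes of 11 tested that were called lower were *mt-Nd3*, *mt-Co3*, *mt-Co2*, *mt-Nd2*, *mt-Atp6* and *mt-Nd4*, with log2 fold changes from −1.34 to −0.92, and 0 were higher. None of 54 nuclear members was called by edgeR, and of the 1672 genes tested 0.598% were called lower and 0.239% higher. At an unadjusted p below 0.05, 5 nuclear members were higher and 0 lower, against 65 and 99 of all genes tested. The count of mt- genes called was 1 with the mouse as a block and 0 without mouse 1 or without mouse 2. In V3.0 border macrophages the nuclear subunits took 1.19% ± 0.05 of UMIs, and in V3.1 ones 1.43% ± 0.07 (SD, n = 3 each), without overlap, and in neutrophils 1.01% ± 0.04 and 1.10% ± 0.08, with overlap.

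Whether the kits acted differently in the cell types was tested by the interaction of type and kit. No member was called: for neutrophils 0 of 13 mt- genes and 0 of 86 nuclear members, and 0% of 7054 genes in either direction. At an unadjusted p below 0.05 were 0 and 2 of these members, against 165 of all genes higher and 235 lower. For border macrophages 0 members were called, against 0.0284% of genes higher and 0.0142% lower. There 3 nuclear members had an unadjusted p below 0.05, against 142 of all genes higher and 193 lower. The differences in the mt- kit effect had SEs from 0.24 to 1.15 for neutrophils and from 0.24 to 0.74 for border macrophages, so only large differences could have been called.

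The inhibitors were compared on microglial UMIs summed per mouse, 1 DNC-INHIB mouse against 2 DNC-NONE mice, so that the cocktail cannot be told apart from the animal. No member was called by edgeR (0 of 13 mt- genes and 0 of 93 nuclear members) or by DESeq2, against 0.364% of 13174 genes higher and 0.349% lower. Of the mt- genes, 12 had a log2 fold change above 0 and 1 below, against 6401 and 6773 of all genes tested. The smallest adjusted p was 0.052, for *mt-Atp6*, which had 1623 and 1361 CPM in the DNC-NONE mice 1 and 3 and 1901 in the DNC-INHIB mouse (log2 fold change 0.36, SE 0.10). *mt-Co3* was at 2491, 2158 and 2890 in the same order. Mouse 2 was highest for both, but these sums mix the kits unequally, V3.0 giving 57.3%, 53.8% and 16.3% of the microglial UMIs of mice 1, 2 and 3. The median log2 fold change of the mt- genes was 0.24 in the sums, 0.095 over the 6 libraries with the kit as a term, 0.30 in the V3.0 libraries alone and −0.09 in the V3.1 libraries alone, where the mt- share of mouse 2 lay between those of mice 1 and 3. The median of the nuclear members was −0.02, with 37 above 0 and 56 below, and the complex II genes lay between −0.09 and 0.05.

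Neutrophils differed from microglia in how their respiratory chain RNA was divided between the genomes. Each mouse being the mean of its 2 libraries, nuclear subunits took 1.06% ± 0.03 of UMIs in neutrophils and 1.08% ± 0.04 in microglia (SD, n = 3 mice), whereas the mt- genes took 0.506% ± 0.077 and 1.45% ± 0.10. No neutrophil library, at 0.289% to 0.747%, reached the lowest microglial library, at 0.836%. The mt- to nuclear ratio, which needs no scaling between cell types, was lower in neutrophils in 6 of 6 libraries (2 from each mouse), by 2.42 to 3.30-fold within a library. By complex the fold was 4.63 to 7.49 for complex I, 3.35 to 4.96 for complex III, 1.81 to 2.59 for complex IV and 2.29 to 3.76 for complex V, each in 6 of 6 libraries.

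**Figure D3:**
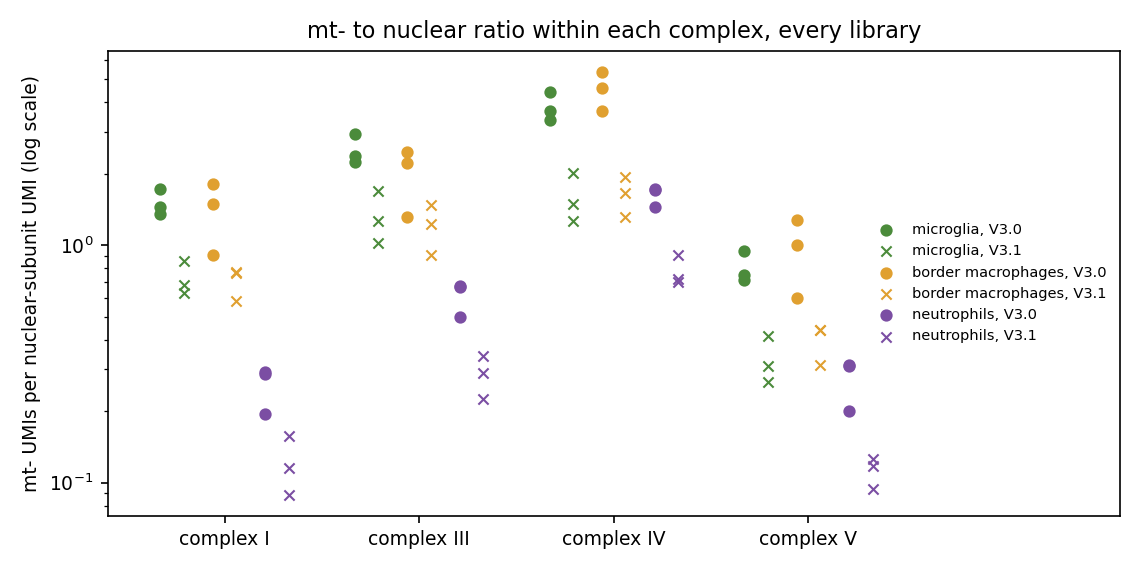
UMIs on mt- genes per UMI on nuclear subunits of the same complex (vertical log axis), 1 point per library, for complexes I, III, IV and V; colours are cell types, dots V3.0 and crosses V3.1. Neutrophils lie below microglia of the same kit in every complex, with complex I furthest (0.0890 to 0.293 against 0.63 to 1.72).

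The make-up of the mt- UMIs differed as well. *mt-Co1*, the oxygen-reducing subunit of complex IV whose annotated end is given above, held 32.3% to 40.8% of the mt- UMIs of neutrophils and 14.3% to 19.1% of those of microglia. Its means were 36.1% ± 1.6 and 16.4% ± 0.55 (SD, n = 3 mice). Border macrophages had a mean of 21.4% ± 0.52. The complex I genes had smaller shares in neutrophils: *mt-Nd1* 2.83% ± 0.66 against 8.29% ± 0.05, *mt-Nd2* 1.66% ± 0.10 against 6.05% ± 0.09, and *mt-Nd4* 6.02% ± 0.56 against 9.86% ± 0.29, with no library overlapping. *mt-Cytb* was at 8.55% ± 0.35 and 14.9% ± 0.53, also without overlap, while *mt-Co3* (17.7% ± 1.2 and 16.9% ± 1.1) and *mt-Atp6* (10.9% ± 0.94 and 11.2% ± 0.24) overlapped.

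**Figure D4:**
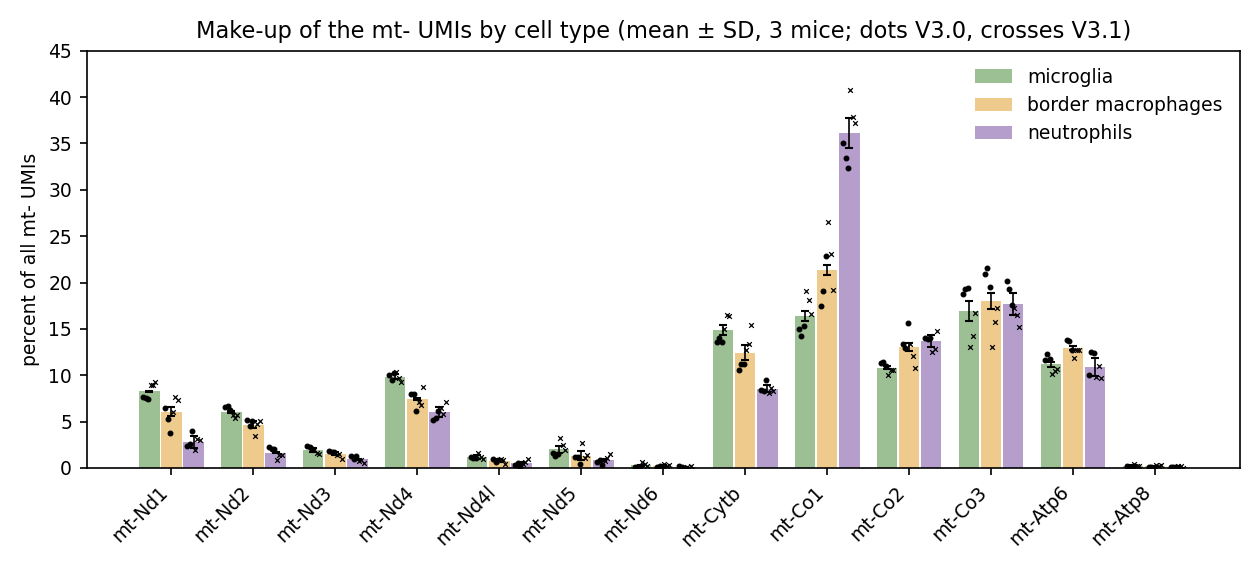
Percent of all mt- UMIs held by each of the 13 mt- genes (vertical axis) in microglia, border macrophages and neutrophils; bars are means with SD over 3 mice, each the mean of its 2 libraries, with dots for V3.0 and crosses for V3.1 libraries. *mt-Co1* is the tallest bar in neutrophils, at 36.1%, and *mt-Nd1*, *mt-Nd2* and *mt-Cytb* are lower there than in microglia.

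Gene-level differences were fitted on UMIs summed per mouse and cell type, and depended on the scaling. The sums mix the kits in proportions that differ between cell types. Mouse 1 gave 110033 V3.0 and 58616 V3.1 UMIs in border macrophages, and 347673 and 366329 in neutrophils. In the V3.0 and the V3.1 libraries alone, the median log2 difference of the mt- genes between neutrophils and microglia was −1.05 and −1.06. The 13 neutrophil markers alone took between 464100 and 495300 CPM in neutrophils, and the TMM scaling of edgeR, with factors of 0.53 to 0.56 for neutrophils and 1.53 to 1.54 for microglia, sets the other genes against each other. Scaling by total UMIs instead moved all genes by a median of −1.50 on the log2 scale. With TMM, 54 of 87 nuclear members tested were called higher in neutrophils and 13 lower, and 1 of 13 mt- genes higher and 8 lower, against 30.3% of 8162 genes higher and 35.5% lower. The median log2 difference was 0.96 over the nuclear members, −0.92 over the mt- genes and −0.23 over all genes. With total UMIs 10 nuclear members were higher and 43 lower, and 0 mt- genes higher and 12 lower, against 11.9% of all genes higher and 73.8% lower. The 10 of 87 are thus near the share of all genes, and the 43 of 87 below it.

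Since total UMIs lower nearly every value by about the same amount, the 13 nuclear members and 8 mt- genes called lower with TMM had to stay lower, and the 10 nuclear members higher under both are those with the largest differences. The 8 mt- genes lower with TMM were the 7 mt- genes of complex I and *mt-Cytb*: *mt-Nd2* had 72.8, 91.0 and 77.2 CPM in the neutrophils of mice 1, 2 and 3 and 918, 1019 and 722 in their microglia (log2 difference with TMM −1.98, SE 0.14, adjusted p = 1.0e-22), and *mt-Nd1* followed at −1.70 (SE 0.14). *mt-Co1* turned from 1.05 (SE 0.10) with TMM to −0.44 with total UMIs, and *mt-Co2* from 0.21 to −1.28, whereas *mt-Co3*, *mt-Atp6* and *mt-Atp8* were at −0.11, −0.19 and −0.60 with TMM and were not called.

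The 5 nuclear members with the largest rises were small accessory subunits: *Ndufa1*, *Ndufb1-ps*, *Ndufb7* and *Ndufa3* of complex I and *Atp5l*, the g subunit of ATP synthase. *Ndufa1* had 195, 220 and 209 CPM in neutrophils of mice 1, 2 and 3 and 84.9, 85.6 and 76.3 in microglia, a log2 difference of 2.83 (SE 0.14, adjusted p = 1.1e-33) with TMM and 1.33 with total UMIs. *Atp5l* had 461, 428 and 439 against 227, 217 and 224 (2.49 with TMM, SE 0.10, and 0.99 with total UMIs). *Ndufb1-ps*, *Ndufb7* and *Ndufa3* were at 2.79, 2.71 and 2.69 with TMM and at 1.30, 1.22 and 1.19 with total UMIs. In all 5 the mice of the 2 cell types did not overlap. The other members higher under both scalings were *Ndufb11* of complex I, *Cox8a* of complex IV and *Atp5e*, *Atp5k* and *Atp5md* of complex V.

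Core and assembly genes of complex I led the falls. *Ndufs3*, a catalytic core subunit, had 7.0, 6.6 and 10.2 CPM in neutrophils (14 UMIs in all) and 96.5, 91.1 and 96.6 in microglia, a log2 difference of −2.12 (SE 0.32, adjusted p = 1.6e-08). *Ndufa9* was at 7.0, 9.9 and 8.1 against 70.1, 65.3 and 71.8 (−1.56, SE 0.33). The assembly factors *Ndufaf4* (−3.13, SE 0.50) and *Ndufaf2* (−2.13) rested on 4 UMIs each in neutrophils, and *Sdhaf1*, which helps to mature succinate dehydrogenase, was at −1.51 (SE 0.46). The other 8 nuclear members called lower with TMM were *Ndufv1*, *Ndufc2*, *Ndufa12*, *Ndufab1*, *Ndufa10*, *Ndufaf7*, *Sdhaf4* and *Atp5g1*. The microglial markers were themselves at 1660 to 4061 CPM in neutrophils, and their part in these low counts was not tested.

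By complex and with TMM, 23 of 37 nuclear subunits of complex I rose and 7 fell, 6 of 8 of complex III, 11 of 11 tested of complex IV and 12 of 17 of complex V rose, and 1 of 17, *Atp5g1*, fell, counts that turn to 10 higher and 43 lower over all nuclear members with total UMIs. Of the 4 subunits of complex II only *Sdhd* was called (0.67, SE 0.22), *Sdhb* was at 0.57, *Sdhc* at 0.17 and *Sdha* at −0.05, and with total UMIs all 4 were below 0. Of the 3 genes for the same c-ring protein of ATP synthase, with TMM *Atp5g3* was called higher (0.80, SE 0.19, adjusted p = 0.00018), *Atp5g1* was called lower (−0.81, SE 0.21, adjusted p = 0.00050) and *Atp5g2* was at −0.46, whereas with total UMIs all 3 were lower. Without mouse 1, *Atp5g1* missed the call at −0.52. Within the nuclear subunits all 3 had smaller shares in neutrophils, with no library overlapping. *Atp5g2* held 0.764% ± 0.033 (SD, n = 3 mice) of nuclear-subunit UMIs in neutrophils and 2.94% ± 0.05 in microglia. *Atp5g1* held 0.301% ± 0.102 and 1.39% ± 0.06, and *Atp5g3*, named after its values were seen, 0.437% ± 0.114 and 0.746% ± 0.008.

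The nuclear subunits higher in neutrophils tended to have short transcripts. Over 76 nuclear subunits with a length, the median transcript length and the log2 difference had a Spearman's rho of −0.59, a description across genes that share the same libraries, against −0.05 over 7948 genes. The subunits called higher with TMM had a median length of 589 bases (52 genes) and those called lower 1116 bases (8 genes), whereas all genes called higher and lower had medians of 1958 and 2114. The trait was not particular to neutrophils. In border macrophages against microglia the rho was −0.49 over the 76 nuclear subunits and −0.16 over the 7948 genes. The 30 subunits called higher there had a median length of 570 bases, against 1399 for all genes called higher. Between the kits in microglia the rho over 78 nuclear subunits was 0.05.

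**Figure D5:**
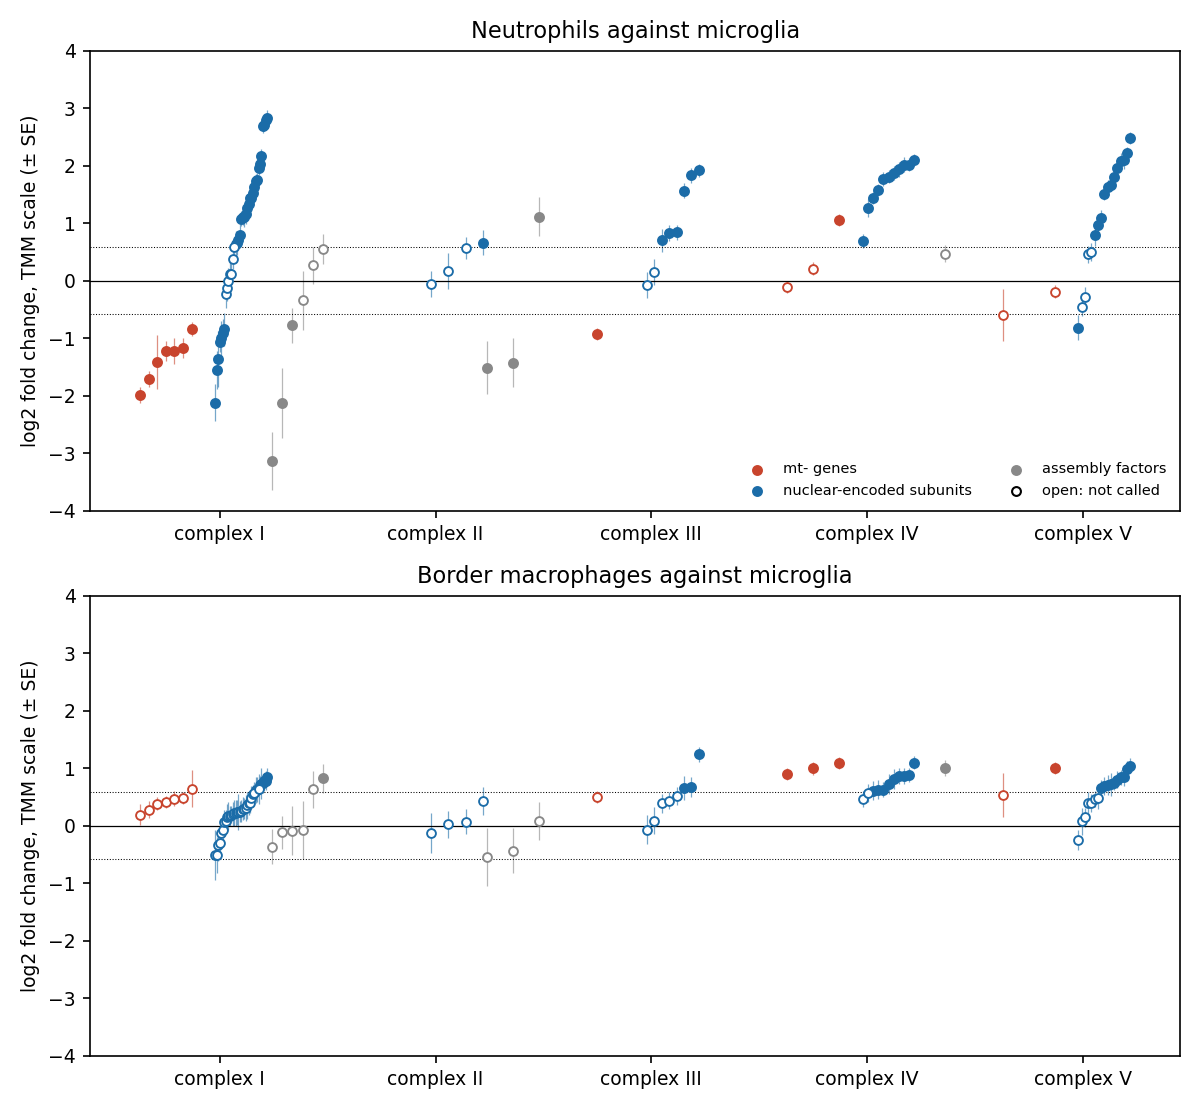
Log2 difference of neutrophils (top) and border macrophages (bottom) against microglia with TMM scaling (vertical axis, ± SE) for every member tested, by complex and class, with dotted lines at 0.58 either way and open symbols for genes not called. In neutrophils complex I spreads from −3.13 to 2.83 and its mt- genes lie below 0, while in border macrophages no member falls below −0.54; without TMM every value would be lower, by about 1.50 (top) and 0.33 (bottom).

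The promoters of *Atp5l* and *Ndufs3*, called in opposite directions in neutrophils with TMM, are shown because both hold letters searched for in the family. Both are RefSeq windows (GRCm38.p6) from 250 bases before to 50 bases after the start of the gene, 5′ to 3′ on the gene's strand, and capitals mark the letters searched for the factors NRF1 (GCGCATGC) and GABPA (CCGGAAG) on either strand, which are known to bind many nuclear genes of the respiratory chain.
Atp5l, chr9:44920693-44920992, − strand: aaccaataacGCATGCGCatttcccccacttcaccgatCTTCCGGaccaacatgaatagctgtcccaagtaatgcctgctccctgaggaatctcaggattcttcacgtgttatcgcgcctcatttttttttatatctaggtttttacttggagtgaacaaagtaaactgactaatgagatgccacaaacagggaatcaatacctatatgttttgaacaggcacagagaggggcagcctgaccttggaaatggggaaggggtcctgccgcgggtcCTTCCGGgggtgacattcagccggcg
Ndufs3, chr2:90904672-90904971, − strand: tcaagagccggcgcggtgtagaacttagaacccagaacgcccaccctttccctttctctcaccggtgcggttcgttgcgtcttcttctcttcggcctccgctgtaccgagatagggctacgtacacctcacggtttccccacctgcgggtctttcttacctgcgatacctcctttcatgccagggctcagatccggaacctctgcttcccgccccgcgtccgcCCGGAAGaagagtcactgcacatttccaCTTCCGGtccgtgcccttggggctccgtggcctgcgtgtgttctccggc
The *Ndufs3* window holds no match to the NRF1 letters. Of 79 nuclear members with such a window, 15.2% held the NRF1 letters, 27.8% the GABPA letters and 12.7% the letters searched for YY1 (AAGATGGC), against 3.05%, 9.93% and 3.19% of 27025 genes, and 2.71%, 8.86% and 2.75% of all 32851 windows of that length. The GABPA letters stood in 15 of 45 members called higher in neutrophils with TMM and in 2 of 13 called lower, the NRF1 letters in 7 and 1, and the YY1 letters in 7 and 1. These are matches of letters, not sites at which binding was measured.

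Lists of other energy genes are read with TMM, against the 30.3% of all genes called higher and 35.5% lower. Of 17 glycolysis genes tested 13 were higher and 3 lower (median log2 difference 2.92), *Slc2a3*, a glucose transporter, at 6.86 and *Gapdh* at 2.97 among them, and 14 genes of mitochondrial DNA and RNA maintenance had 1 higher and 9 lower (median −1.49), among them *Tfam*, which packages mitochondrial DNA, at −4.49 (SE 0.80) and *Lrpprc*, which stabilizes mitochondrial mRNA, at −2.01 (SE 0.50). The mitochondrial ribosome had 13 higher and 28 lower of 75 (median −0.39), below the share of all genes for higher and near it for lower, the tricarboxylic acid cycle 5 and 7 of 16 (−0.40), complex IV assembly and cytochrome c 5 and 2 of 14 (0.40), regulators of biogenesis 1 and 0 of 7 (0.40), and the outer membrane and import 5 and 5 of 15 (−0.12). Against the shift of −1.50 with total UMIs, the glycolysis median is the only one of these that lies further above 0 than the shift.

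Border macrophages, the macrophages of the meninges and vessels, stood nearer to microglia, and 127 of the 151 were led by *H2-Eb1* and *H2-Aa*. Their mt- share was 1.88% ± 0.26 (SD, n = 3 mice) and their nuclear-subunit share 1.31% ± 0.01, against 1.45% ± 0.10 and 1.08% ± 0.04 in microglia. In border macrophages the microglial markers summed to between 24700 and 39820 CPM and the 14 border macrophage markers to between 2989 and 6344. The part of microglial RNA in this nearness was not tested. The mt- to nuclear ratio was lower than in microglia in 3 of 6 libraries and higher in 3, and by complex it was lower in 4 of 6 for complex I, 5 of 6 for complex III, and 1 of 6 for complexes IV and V each. With TMM, 32 of 87 nuclear members and 4 of 13 mt- genes were called higher and 0 lower, against 12.3% of 8162 genes higher and 8.54% lower. The median log2 differences were 0.43 for nuclear members, 0.49 for mt- genes and −0.05 for all genes. For the mt- genes the median was 0.28 in the V3.0 libraries alone and 0.48 in the V3.1 libraries alone. With total UMIs, which moved all genes by a median of −0.33, 5 nuclear members and 4 mt- genes were higher and 4 nuclear members lower, against 8.43% of all genes higher and 22.8% lower, so that the nuclear counts are both below the share of all genes.

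The 9 members higher under both scalings were those with the largest differences with TMM. Total UMIs lower nearly every value by about the same amount, so the 2nd scaling is no separate support. Among the 9 were *mt-Co1*, *mt-Co2*, *mt-Co3* and *mt-Atp6*, the mt- genes of complexes IV and V other than *mt-Atp8*. *mt-Co1* had 4346, 4372 and 2839 CPM in border macrophages of mice 1, 2 and 3 and 2300, 2464 and 2032 in microglia, a log2 difference with TMM of 1.09 (SE 0.11, adjusted p = 4.5e-15), and *mt-Atp6*, *mt-Co2* and *mt-Co3* were at 1.00, 1.00 and 0.91. The nuclear members were *Uqcrh*, the hinge protein of complex III (368, 453 and 502 against 233, 234 and 242 CPM, log2 difference 1.24, SE 0.13), *Cox4i1* (1.09), *Atp5l* (1.04), *Atp5h* (0.99) and *Cox7a2l* (1.00), a factor of supercomplex assembly. For *mt-Co1* and *Uqcrh* the mice of the 2 types did not overlap. The mt- genes of complex I lay between 0.19 and 0.64 and none was called. The count of members called higher was 20 in the V3.0 libraries alone, where mouse 3 gave 5 border macrophages, and 35 in the V3.1 libraries alone. Against the 12.3% and 8.54% of all genes, 8 genes of the mitochondrial ribosome were higher and 1 lower of 75, and glycolysis had 4 higher and 2 lower of 17. Mitochondrial DNA and RNA maintenance had 1 higher, *Slirp* at 0.78, and 1 lower, *Lrpprc* at −1.93, of 14 (median 0.01).

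The isoforms known from muscle, lung, testis or hypoxia were scarce in microglia. *Cox6a2*, the muscle form of a complex IV subunit, had 580 microglial UMIs, between 7.3 and 10.4 CPM in each mouse, and *Cox6b2*, the testis form, had 178. *Cox7a1* had 42, *Cox4i2* and *Ndufa4l2* 2 each and *Cox7b2* 1, while *Cox8b* and *Cox8c* had 0 of 68589569 microglial UMIs, which allows up to 0.0437 CPM (3 counts, counting error only). In neutrophils *Cox6a2* and *Cox6b2* had 1 UMI each.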

How the data were processed

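CD45+/CD11b+ live singlets of 3 mice were captured with both 10X kits. The authors deposited raw UMI counts per gene and barcode from Cell Ranger 5.0.0 (mm10/GRCm38, filtered Ensembl annotation), 1 matrix per library, without normalization; how strand was set was not given in the sources used here. The members and the gene lists were chosen with earlier results of these data known.

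Kept barcodes had between 1000 and 4000 genes, no more than 12000 UMIs and no more than 15% mt- UMIs, a mitochondrial limit that removed 1 barcode with 1000 genes. Cells were clustered with scanpy 1.11.5 (2000 variable genes, 20 components, Leiden resolution 1) without the members, and clusters were named by fixed markers; a cluster of neutrophil genes with microglial identity genes (33 cells) was left unnamed, by a rule chosen after seeing the data. No doublets were removed, and an alternative dropped the cells in the top 4% by Scrublet score.

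UMIs were summed per library, or per mouse and cell type, and tested over all genes in R 4.3.3 with edgeR 4.0.16 (quasi-likelihood, TMM, two-sided, Benjamini-Hochberg), with calls at an adjusted p under 0.05 and a log2 change over 0.58 in size. Shares and ratios got no test. The kits had no block in the main fits, and cell types were blocked by mouse. Same-numbered libraries come from the same animal, and their deviations from the kit means correlated at 0.56, 0.75 and 0.33 over 500 genes, so the mouse block was an alternative. Others were DESeq2 1.42.0, no filter, no TMM, other cell filters and leaving out libraries. In the inhibitor comparison the lone DNC-INHIB mouse was assumed to vary like the others. The procedure was tested on simulated data. CPM are UMIs per 1000000 of a library's UMIs in that cell type. The precision is limited by the UMIs summed, from 24700 to 16551849.

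Genes named are the 13 mt- genes, the 3 nuclear subunits with the most microglial UMIs per complex, all of complex II, up to 5 called members with the largest rise and 5 with the largest fall per comparison, the rare isoforms, and called genes of the lists.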

Additional observations from a re-analysis of the deposited data

Results flagged for a closer look

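Of 51 groups of 6 libraries examined for shares and ratios, 1 held a library apart from the rest: the assembly factors took 0.0143% of neutrophil UMIs in the V3.1 library of mouse 3, against 0.0191% to 0.0218% in the other 5. The gap to the nearest library exceeded Dixon's 95% limit for 6 values, which chance alone exceeds in about 1 of 20 groups, so that some flags are expected among 51.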

How the results depend on the processing

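The counts of members called between the kits in microglia stayed at 10 under the alternatives run, apart from 8 without mouse 2. In neutrophils the count of 7 ranged from 1 to 6 when a mouse was left out and was 4 without the V3.0 library of mouse 3, and in border macrophages the count of 6 ranged from 0 to 4. With the mouse as a replicate block the counts were 10 in microglia, 9 in neutrophils and 1 in border macrophages, and without the block between cell types they were 77 (neutrophils) and 41 (border macrophages). The TMM factor mattered between cell types. Without it the neutrophil count went from 76 (55 higher, 21 lower) to 65 (10 higher, 55 lower), all 10 higher being nuclear-encoded against 54 before, and these log2 differences turned negative: *mt-Co1* −0.44, *mt-Co2* −1.28, *Ndufa2* −0.42, *Sdhb* −0.93, *Sdhd* −0.83, *Sdhc* −1.33, *Uqcrb* −0.66, *Uqcr11* −0.67 and *Cox7c* −0.055. In border macrophages the count went from 36 to 13 (9 higher, 4 lower), with 5 nuclear members higher against 32, and in the V3.0 libraries alone to 20 and 16. With cells of at least 500 genes, neutrophil differences between kits were −0.634 percentage points for the mt- share (−0.331 in the report) and −0.665 for the mt- to nuclear ratio (−0.358). Against microglia, 6 mt- genes were then lower in neutrophils (8 in the report), with a median of −0.53 (−0.92). The cause was not tested. The V3.0-only and V3.1-only fits of cell types and the no-TMM settings were added after the data had been seen. So were all those leaving out the V3.0 library of mouse 3. The depth of border macrophages, 5 cells in the smallest library, limits every comparison that uses them.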

Other observations

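Within microglia, the clusters made without the respiratory chain genes differed in these shares, given as descriptions. Cluster 11 (241 cells, led by *Acrbp*) held 3.02% of its UMIs on the mt- genes and 0.383% on the nuclear subunits, with the mt- share higher and the nuclear share lower than in the other microglia in 5 of the 5 libraries with at least 10 of its cells. Its median of 2189 UMIs per cell was low, and without it 10 mt- genes were still called between the kits. Cluster 6 (962 cells, led by *Gm43221*) was low in both shares, 0.862% and 0.892%, in 6 of 6 libraries. Cluster 5 (1441 cells, led by *Cd83*, *Ank* and *Gpr84*) was higher in both, 2.02% and 1.17%, in 6 of 6 libraries. The interferon-response cluster (800 cells, led by *Ifit3*) lay close to the rest at 1.44% and 1.07%, and 51 cycling cells with *Top2a* and *Mki67* among their leading genes were at 2.08% and 1.44%, higher in both in the 2 libraries with at least 10 of them.

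Among neutrophils, the 125 cells led by the granule genes *Camp*, *Ltf* and *Ngp* held 0.532% on the mt- genes and 1.17% on the nuclear subunits, above the other neutrophils in 6 of 6 libraries for both, while the 107 cells led by *Cstdc4* and *Stfa2l1* held 0.398% and 0.951%. Of the border macrophages, the 127 cells led by *H2-Eb1* and *H2-Aa* held 1.89% and 1.32%, and the 24 led by *Cd163*, *Pf4* and *Mrc1* 3.01% and 1.11%. In libraries with at least 10 of the cells, the 127 were above the other border macrophages in 2 of 5 for the mt- share and 4 of 5 for the nuclear share. The 24 were above in 0 of 1 for both. These clusters mix libraries of both kits in unequal numbers, and the counts of libraries come from comparisons within libraries.

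Barcodes with fewer than 1000 genes, which entered no comparison, held 5.31%, 5.09% and 2.90% of their UMIs on the mt- genes in the V3.0 libraries of mice 1, 2 and 3, and 2.54%, 2.74% and 2.97% in the V3.1 libraries. The kits were thus apart in mice 1 and 2 and close in mouse 3 among these barcodes. Of all 29412 barcodes, 204 had more than 15% mt- UMIs, and 1 of them had at least 1000 genes.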
